A study of Mus musculus with 2 samples.

Results

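The genes examined were the 5 perilipins, *Plin1*, *Plin2*, *Plin3*, *Plin4* and *Plin5*, and the 3 CIDE genes, *Cidea*, *Cideb* and *Cidec*. They were chosen by name, as the gene families that coat and enlarge lipid droplets, and all 8 were found by symbol among the 32285 genes of both count matrices. The data were single-cell RNA sequencing counts of back skin and of the preputial gland (PG) from 3 male C57BL/6 mice at 52 weeks of age. These were wild type animals with no treatment. Skin biopsies and glands were each pooled over the mice, and 1 droplet-based 3′ library was made per tissue, so neither tissue has a replicate. A difference between tissues and a difference between libraries cannot be told apart here, and no test between conditions was possible. Values rest on unique molecular identifiers (UMIs, 1 per captured transcript) and are given as UMIs of a gene per 1000000 UMIs of a cell class (CPM), with exact 95% intervals that cover counting error only.

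Lipid droplets store neutral lipid in a core under a single layer of phospholipid, and perilipins sit on that surface, where they control the access of lipases. *Plin2* coats droplets in most tissues that are not fat, *Plin3* is widely expressed and moves from the cytosol to nascent droplets, and *Plin1*, *Plin4* and *Plin5* are best known from fat, from fat and muscle, and from oxidative tissues. CIDE proteins gather at contacts between droplets and pass lipid from the smaller to the larger one. Sebocytes (SEB) of skin sebaceous glands (SG) and of the PG fill with lipid droplets as they mature and burst to release sebum, and the PG, a gland specialised for pheromone release, is used as a model of skin SG.

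In the mm10 build, *Plin3*, *Plin4* and *Plin5* share chromosome 17, all on the minus strand. *Plin4* (chr17:56100591-56109803) and *Plin5* (chr17:56111601-56117596) are 1797 bases apart, and *Plin3* (chr17:56277476-56292873) starts 159879 bases beyond *Plin5*. *Plin2* lies at chr4:86648386-86670060, *Plin1* at chr7:79720218-79732903, *Cidec* at chr6:113424634-113435760 and *Cideb* at chr14:55754050-55758458, each on the minus strand. *Plin4*, *Cidea* and *Cideb* each overlap a gene of the other strand, namely *Hdgfl2*, *B430212C06Rik* and *Nop9*. Whether the counting was strand-specific is not given in the sources used here, so these genes may share reads with their partners.

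Promoters of 7 of the 8 genes were read from the RefSeq table of the GRCm38.p6 build. Those of *Plin2* and *Plin3* are shown because these perilipins had the most counts and different patterns, *Plin2* being concentrated in SEB and *Plin3* counted at low levels in nearly all classes. Each line gives the 250 bases before the start site, 5′ to 3′ on the minus strand, chr4:86670060-86670309 for *Plin2* and chr17:56290512-56290761 for *Plin3*. The 2 sources place the start of *Plin3* differently, and its stretch lies inside the gene span given above, which ends at 56292873. The bases before that end were not searched. Capitals mark the nuclear receptor half-site AGGTCA, read here on the opposite strand.
Plin2: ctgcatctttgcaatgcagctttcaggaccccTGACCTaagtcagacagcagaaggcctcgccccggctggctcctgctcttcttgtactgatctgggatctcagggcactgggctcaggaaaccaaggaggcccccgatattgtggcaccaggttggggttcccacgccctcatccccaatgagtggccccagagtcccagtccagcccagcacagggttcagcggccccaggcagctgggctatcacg
Plin3: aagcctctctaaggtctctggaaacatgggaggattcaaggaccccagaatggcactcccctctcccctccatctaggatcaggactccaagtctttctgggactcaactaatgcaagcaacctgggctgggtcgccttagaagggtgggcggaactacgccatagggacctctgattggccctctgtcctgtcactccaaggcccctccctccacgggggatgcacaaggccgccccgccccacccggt
Over the full window of 300 bases, which runs 50 bases past the start, 3 motifs were searched on both strands: AGGTCA, the direct repeat of that half-site with 1 spacer (AGGNCANAGGNCA) and TATAAA. A direct repeat with T in place of the N inside a repeat also counts as a half-site. *Plin2* held 1 half-site, from base 33 to base 38 of the window (position -218), *Plin5* held 1 in each of its 2 overlapping promoters, *Cideb* held TATAAA, and the windows of *Plin1*, *Plin3*, *Plin4* and *Cidec* held none of the 3. Of all 32851 promoters of this length, 16.3% held the half-site, 0.381% the direct repeat and 13.6% TATAAA. G and C made up 60.7% of the *Plin2* window and 59.3% of the *Plin3* window, against a median of 52.7% over all promoters.

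Barcodes were kept with a minimum of 1000 UMIs and 500 genes and no more than 10% of mitochondrial UMIs. This left 8899 skin cells with a median of 2386 UMIs and 4699 PG cells with a median of 2729 UMIs, and the libraries shared 0 of their kept cell barcodes. Cells were assigned to classes from marker genes that include none of the 8 genes, so class names stand for marker-based likeness. A SEB carried at least 2 of 10 sebocyte markers with at least 3 UMIs each, at 20 or more marker UMIs per 10000. The markers were *Scd1*, *Mgst1*, *Awat2*, *Elovl3*, *Soat1*, *Acsbg1*, *Far2*, *Mc5r*, *Pparg* and *Dgat2l6*. This gave 34 SEB of skin (sSEB, 0.382% of cells, 182110 UMIs) and 720 SEB of PG (pSEB, 15.3%, 4073348 UMIs). These sizes depend strongly on *Mgst1*: without it the gate left 14 sSEB and 95 pSEB. A stricter gate that asked for 1 marker more left 16 and 94. Early SEB kept basal keratins at 20 or more per 10000 and had under 2 markers of late SEB. Of the rest, late SEB had at least 1 late marker, for which 1 UMI was enough, and the others were intermediate. The set called basal keratins for stages and bins was *Krt5*, *Krt14*, *Krt15*, *Col17a1* and *Itga6*, of which the last 2 are not keratins. There were 13 early, 1 intermediate and 20 late sSEB, and 148, 274 and 298 pSEB. The SEB gate cuts a continuous range: in skin 73 cells and in PG 694 cells were 1 marker short. Medians over cells of the markers of fibroblasts, T cells, macrophages, endothelium, contractile cells, muscle, melanocytes, Schwann cells and adipocytes were 0 in the SEB of both tissues, while basal keratinocyte markers stood at 27.3 per 10000 in sSEB and 12.3 in pSEB, and upper follicle markers at 12.8 and 3.8.

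Of the 8 genes, *Plin2*, *Cidea* and *Plin3* accounted for most of the counts in each tissue and the other 5 were rare. In skin cells *Plin3* had 906 UMIs, *Plin2* 742 and *Cidea* 348. In PG cells *Plin2* led with 7220 UMIs, before *Cidea* with 2744 and *Plin3* with 527. *Plin4* had 17 UMIs in skin and 40 in PG, *Plin5* 1 and 39, *Cidec* 0 and 22, *Plin1* 6 and 3, and *Cideb*, best known from liver and gut, 1 and 3. The order differed between tissues, the ubiquitous *Plin3* coming first in skin and *Plin2* in PG. Cells outside the SEB gate had the same order, with 901 *Plin3* and 545 *Plin2* UMIs in skin and 410 and 2756 in PG.

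*Plin2*, whose protein coats droplets in cells that are not adipocytes, was highest in SEB, and at close levels in both tissues. It stood at 1082 CPM (936 to 1244) in sSEB and at 1096 CPM (1064 to 1129) in pSEB. With 0.382% of the cells, sSEB held 26.5% of the *Plin2* UMIs of skin, and pSEB, with 15.3% of the cells, held 61.8% of those of PG. All other cells means all kept cells outside the SEB gate. These include cells with markers of several lineages (mixed), cells with no class (unassigned) and cells 1 marker short of SEB. Pooled over all other cells, levels were much lower in skin than in PG, so the contrast within the tissue differed. Macrophages and dendritic cells had close levels, at 204 CPM in skin and 219 CPM in PG. In skin, *Plin2* was 54-fold higher in sSEB than in all other cells (20 CPM, log2 ratio 5.76, 5.51 to 5.99). In PG it was 4.45-fold higher in pSEB than in the others (246 CPM, log2 ratio 2.15, 2.09 to 2.22). Cells 1 marker short held 1115 of the 2756 *Plin2* UMIs of all other cells in PG, and 19 of 545 in skin. After thinning each cell to 1000 UMIs, 52.9% of sSEB (35.1 to 70.2) and 60.4% of pSEB (56.7 to 64) kept a *Plin2* UMI. Without thinning these shares were 82.4% and 93.3%. In all other cells the thinned share was 2.2% in skin and 18.3% in PG. It was 21.7% in PG basal keratinocytes and 13.9% in skin macrophages and dendritic cells. In suprabasal keratinocytes of skin, which do not make sebum, the thinned share was 0.531%, with a median of 3077 UMIs per cell against 4790 in sSEB.

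*Cidea* (chr18:67343604-67367785, plus strand), which drives droplet fusion in brown fat and in lipid-secreting glands, was more confined to SEB than *Plin2*. In sSEB it stood at 1664 CPM (1482 to 1862) and in all other skin cells at 1.65 CPM, a 1007-fold difference (log2 ratio 9.98, 9.52 to 10.46). In pSEB it stood at 528 CPM (506 to 550) and in all other PG cells at 53.1 CPM, a 9.93-fold difference (log2 ratio 3.31, 3.18 to 3.44). Cells 1 marker short held 213 of the 595 *Cidea* UMIs of all other cells in PG, and 4 of 45 in skin. Without mixed and unassigned cells the others stood at 36.7 CPM in PG and 0.948 CPM in skin. SEB held 87.1% of the *Cidea* UMIs of skin and 78.3% of those of PG. Thinned, 47.1% of sSEB (29.8 to 64.9) and 37.2% of pSEB (33.7 to 40.9) kept a *Cidea* UMI, and unthinned 61.8% and 79.7%. The 941 skin fibroblasts held 0 *Cidea* UMIs, a count that allows up to 1.62 CPM. In each tissue the ratio of *Cidea* between SEB and other cells was above that of *Plin2*, with intervals that do not overlap.

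**Figure D1:**
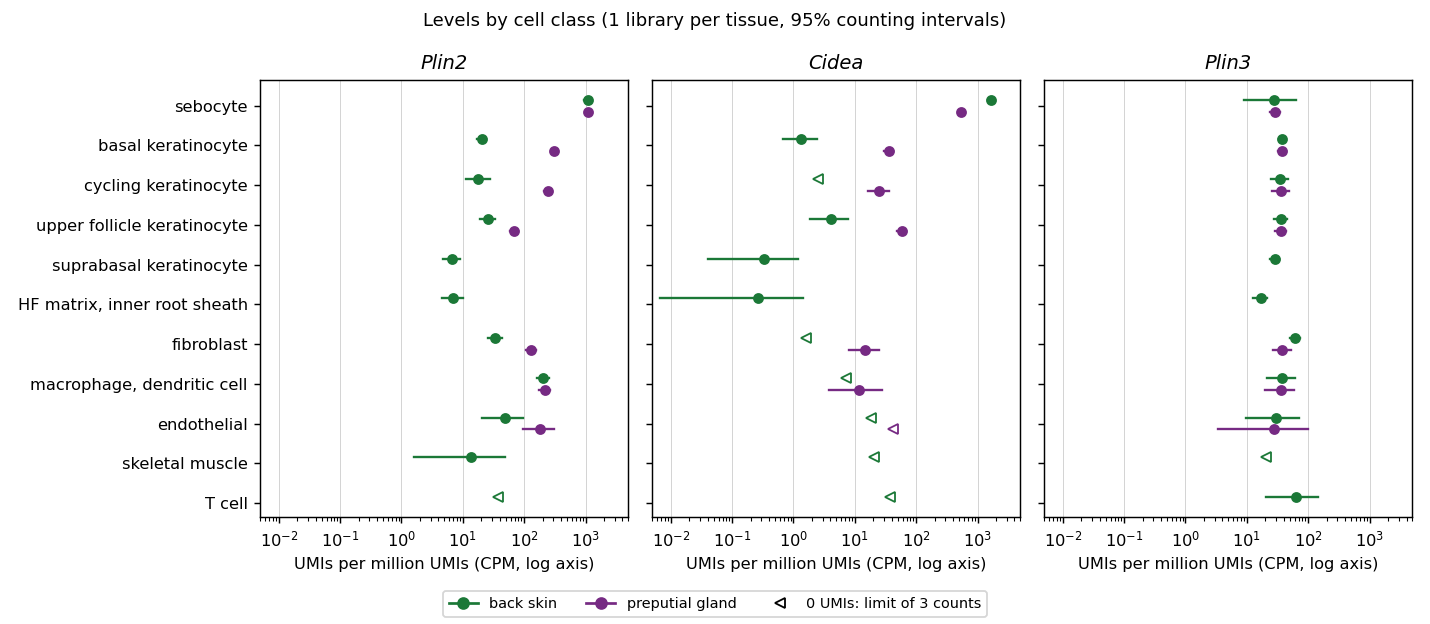
CPM of *Plin2*, *Cidea* and *Plin3* on a log axis in each cell class with at least 30 cells, for back skin (green) and PG (purple), with bars for 95% counting intervals and open triangles for the limit that 0 UMIs allow. *Plin2* and *Cidea* peak in SEB of both tissues. Basal, cycling and upper follicle keratinocytes of PG lie above those of skin for *Plin2*, and basal ones also for *Cidea*. *Plin3* stays between 16.7 and 62.9 CPM wherever it was counted.

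Of the 4 members with at least 10 UMIs in the skin comparison, 2 were at least 2-fold higher in SEB with an interval that leaves out 1, *Plin2* and *Cidea*, and 0 were lower, where 5.21% of all 15618 genes tested were higher and 4.23% lower by the same rule. *Plin4*, with 0 UMIs in sSEB, had no ratio there and could not be called. In PG 4 of 6 were higher, *Plin2*, *Cidea*, *Plin5* and *Cidec*, and 0 lower, where 5.66% of 13856 genes were higher and 24.4% lower. *Cidec* reached 10 UMIs only through pSEB, so nothing is read from its being called. The median log2 ratio over all genes was 0.07 in skin and -0.21 in PG.

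*Plin5*, which links droplets to mitochondria in oxidative tissues, and *Cidec*, the droplet fusion protein of white fat, were rare in PG, with more of their UMIs in pSEB than in all other cells. *Plin5* had 27 UMIs in pSEB (6.63 CPM, 4.37 to 9.64) against 12 in all other PG cells (1.07 CPM), a log2 ratio of 2.63 (1.60 to 3.74). *Cidec* had 15 UMIs in pSEB (3.68 CPM, 2.06 to 6.07) against 7 elsewhere (0.625 CPM), a log2 ratio of 2.56 (1.18 to 4.09), and reached the minimum of 10 UMIs only through pSEB. Both genes stood far under *Plin2* in the same cells, and unthinned only 3.61% of pSEB held a *Plin5* UMI and 2.08% a *Cidec* UMI. Among the 61 PG epithelial cells with the highest levels of sebocyte markers, *Plin5* reached 17.4 CPM (7.52 to 34.3) and *Cidec* 8.71 CPM (2.37 to 22.3). In sSEB neither gene was counted, but 0 of 182110 UMIs allows up to 16.5 CPM, above the level of either in pSEB as a whole, so no difference between the tissues was detectable at this depth.

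*Plin4*, a perilipin of white fat that coats new droplets, showed no such concentration in SEB. In pSEB it had 10 UMIs (2.45 CPM) and in all other PG cells 30 (2.68 CPM), a log2 ratio of -0.13 (-1.32 to 0.95). PG fibroblasts held 16 of its 40 UMIs in that tissue, at 16.9 CPM (9.64 to 27.4). Skin fibroblasts held 7 of 17, at 3.77 CPM (1.52 to 7.77). *Plin1*, the main coat of fat cell droplets, had 0 UMIs in SEB of both tissues, which allows up to 16.5 CPM in sSEB and 0.736 CPM in pSEB, and the same holds for *Cideb*. Fat cells were nearly absent: no skin cell and 5 PG cells carried 3 or more of the adipocyte markers *Adipoq*, *Retn*, *Cfd*, *Car3* and *Lep*. These 5 cells held 2 of the 3 *Plin1* UMIs, 3 of the 22 *Cidec* UMIs and 4 *Plin2* UMIs of PG.

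*Plin3*, which is found in most cell types, was not called between SEB and other cells in either tissue. In sSEB it stood at 27.5 CPM (8.91 to 64.1) against 33.1 CPM in all other skin cells, a log2 ratio of -0.27 (-1.90 to 0.96). In pSEB it stood at 28.7 CPM (23.8 to 34.4) against 36.6 CPM, a log2 ratio of -0.35 (-0.66 to -0.05). SEB held 0.552% of the *Plin3* UMIs of skin and 22.2% of those of PG. Over the 18 classes with at least 30 cells it ran from 16.7 CPM (12.8 to 21.3) in hair follicle (HF) matrix and inner root sheath to 62.9 CPM (20.4 to 147) in skin T cells, with 0 UMIs in skeletal muscle, where up to 20.2 CPM could be missed. Skin fibroblasts stood at 62 CPM (51.1 to 74.4), above the intervals of skin basal keratinocytes at 37.8 CPM (33.7 to 42.2) and of the HF class. Most other neighbours in this order had overlapping intervals.

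The balance between both abundant genes differed between the tissues. *Cidea* made up 60.6% (56.2 to 64.9) of the summed *Plin2* and *Cidea* UMIs of sSEB, but 32.5% (31.4 to 33.6) of those of pSEB. Single cells showed the same order. In 15 of the 34 sSEB *Cidea* had more UMIs than *Plin2* and in 13 it had fewer, whereas in 116 of the 720 pSEB it had more and in 509 it had fewer. The median sSEB had 4.08 *Plin2* and 3.58 *Cidea* UMIs per 10000, with highest values of 43.9 and 66.4. The median pSEB had 9.64 and 4.38, with highest values of 47.8 and 24.8. The levels of sSEB were thus more unequal from cell to cell, with an upper quartile of 26.3 for *Cidea* against 7.47 in pSEB. In barcodes with at most 20 UMIs, used as an estimate of free RNA, *Cidea* made up 26.9% (11.6 to 47.8) of both genes in skin and 27.3% (20.6 to 34.9) in PG.

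**Figure D2:**
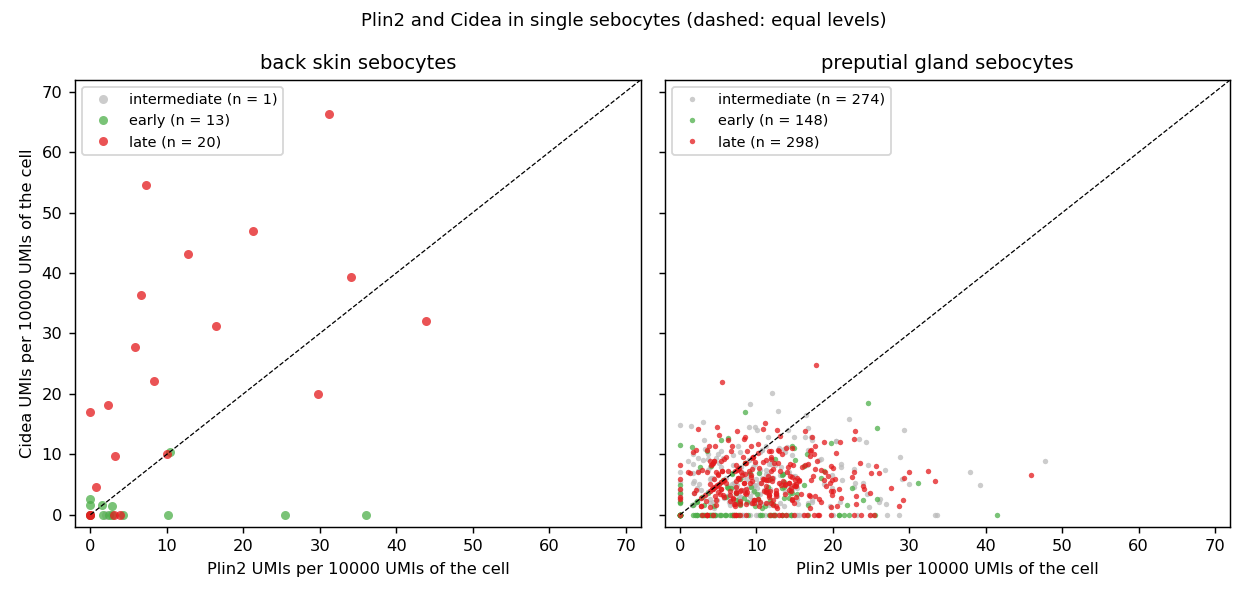
Each point is 1 SEB of back skin (left) or PG (right), with its *Plin2* UMIs per 10000 UMIs of the cell on the x axis and its *Cidea* UMIs per 10000 on the y axis, coloured by stage, and equal levels dashed. Late sSEB (red) reach up to 66.4 *Cidea* UMIs per 10000 and lie mostly above the dashed line, early sSEB (green) have at most 10.4, and the pSEB reach 24.8 *Cidea* UMIs per 10000, 509 of the 720 with more *Plin2* than *Cidea* UMIs.

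The comparison of late with early SEB addressed how these genes differ as SEB mature. Depth differed by stage, with a median of 4318 UMIs in early and 5342 in late sSEB. In early, intermediate and late pSEB it was 4257, 4862 and 6878. Since 1 UMI of a late marker could make a cell late, stage can depend on depth, which was not tested. In skin both abundant genes were higher in late SEB by the stage rule used. *Cidea* stood at 145 CPM (66.5 to 276, 9 UMIs) in early and 2546 CPM (2263 to 2854, 294 UMIs) in late sSEB, a log2 ratio of 4.13 (3.19 to 5.27). *Plin2* stood at 663 CPM (475 to 899, 41 UMIs) in early and 1342 CPM (1139 to 1571, 155 UMIs) in late sSEB, a log2 ratio of 1.02 (0.51 to 1.55). *Cidea* made up 18% (8.58 to 31.4) of both genes in early and 65.5% (60.9 to 69.9) in late sSEB, but 57.8% in early sSEB with stages set by keratins alone. Thinned, 7 of the 13 early sSEB kept *Plin2* alone, 1 kept *Cidea* alone and 0 kept both, while 10 of the 20 late sSEB kept both. The 2 members with at least 10 UMIs were both higher, where 11% of 2462 genes were higher and 7.31% lower. *Cidea* reached 10 UMIs only through late sSEB, so nothing is read from its being called. These values rest on 13 early cells and on the stage rule: by keratins alone, where 13 of the 34 sSEB were late, the log2 ratio was -0.19 for *Cidea* and -0.92 for *Plin2*. Among the 26 gated sSEB that also lay in a SEB cluster, 8 early and 17 late, it was 4.88 for *Cidea* and 3.38 for *Plin2*.

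In PG both genes were also higher in late than in early SEB, and whether the stage ratios differ between the tissues was not tested. *Plin2* stood at 883 CPM (813 to 957) in early, 1076 CPM (1022 to 1132) in intermediate and 1179 CPM (1133 to 1228) in late pSEB, a late over early log2 ratio of 0.42 (0.29 to 0.55). *Cidea* stood at 311 CPM (270 to 356), 550 CPM (512 to 591) and 583 CPM (550 to 617), a ratio of 0.91 (0.69 to 1.13). Both intervals leave out 0 on the log2 scale, but neither ratio reached 2-fold. Of the gated pSEB, 47 of 148 early and 258 of 298 late cells also lay in a SEB cluster, and among these the ratio was 0.26 for *Plin2* and 0.24 for *Cidea*. The other members had few counts: *Cidec* had 1 UMI in early and 9 in late pSEB (1.56, -1.30 to 7.01), *Plin5* 4 and 15 (0.29, -1.36 to 2.34) and *Plin3* 17 and 62 (0.25, -0.54 to 1.12). None of the 5 members with at least 10 UMIs was called, where 3.74% of 9432 genes were higher and 8.92% lower. *Cidea* made up 26% (23 to 29.3) of both genes in early, 33.9% (31.9 to 35.9) in intermediate and 33.1% (31.5 to 34.6) in late pSEB.

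To follow the genes without stage borders, all epithelial cells were ordered by their own level of sebocyte markers. The bins pool SEB, keratinocyte classes and unassigned cells, so cell class and maturation are mixed along them. In the PG bin from 30 to 50, *Cidea* stood at 135 CPM (108 to 166) in cells with basal keratins at 20 or more per 10000. In the other cells of that bin it stood at 332 CPM (283 to 386). For *Plin2* these values were 659 and 763 CPM. The part of cell class was not tested. In PG *Plin2* climbed at lower marker levels than *Cidea*. From the bin with under 5 marker UMIs per 10000 to the bin from 20 to 30, *Plin2* went from 65 CPM (55.2 to 76) through 154 and 272 to 447 CPM (413 to 483), while *Cidea* went from 27.3 CPM (21.1 to 34.8) through 38.5 and 43 to 69.1 CPM (56.1 to 84.2). *Cidea* then climbed to 220, 501 and 667 CPM in the next 3 bins, and *Plin2* to 705, 1059 and 1285 CPM. In the last bin, of cells with over 200 marker UMIs per 10000, *Plin2* stood at 1282 CPM and *Cidea* at 540 CPM (475 to 611), below the interval of the bin before it (623 to 713). The share of *Cidea* in both genes accordingly was 29.6% in the first bin, 13.4% (11 to 16.1) in the bin from 20 to 30 and 34.2% (32.3 to 36.1) in the bin from 100 to 200. *Plin3* stayed between 25.1 and 43.7 CPM up to 200 and had 5 UMIs (10.9 CPM, 3.53 to 25.4) above that.

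In skin the bins above 30 held 21, 12, 12 and 1 cells. *Plin2* stood at 11.1 CPM (9.67 to 12.8) in the lowest bin, 154 CPM (109 to 211) from 20 to 30 and 1753 CPM (1443 to 2109) from 100 to 200, with a dip to 216 CPM (104 to 397) from 50 to 100. *Cidea* stood at 0.595 CPM (0.297 to 1.06), 72.8 CPM (43.2 to 115) and 3192 CPM (2769 to 3661) in the same bins. It had 1 UMI in the 21 cells from 30 to 50, where *Plin2* had 30. The most SEB-like skin cells thus carried more *Cidea* than *Plin2*, which no bin of PG did.

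**Figure D3:**
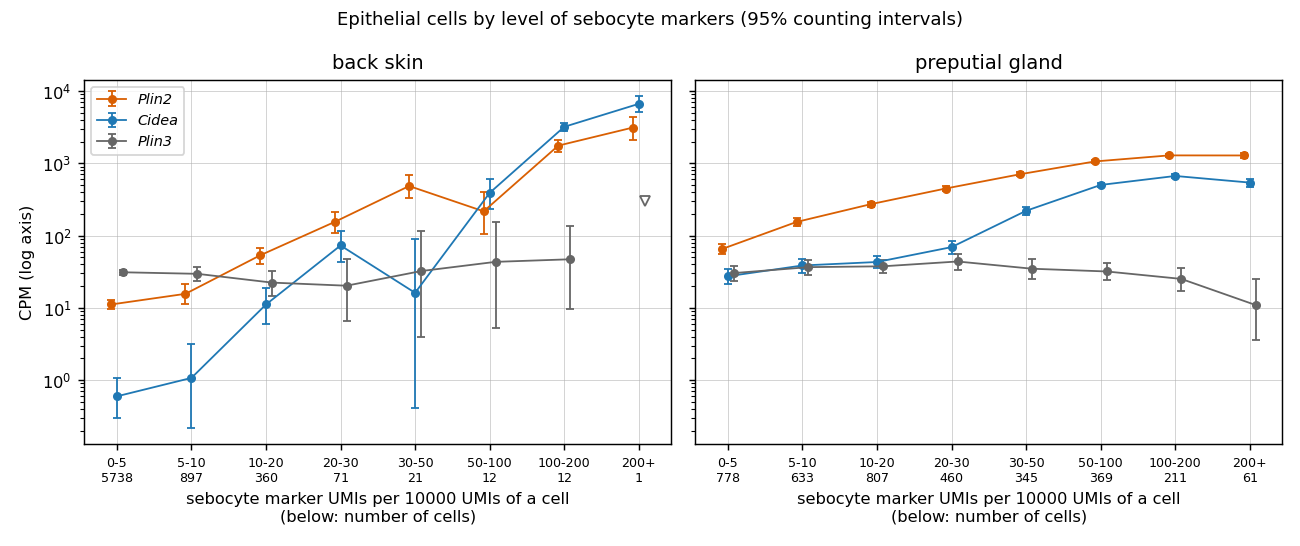
CPM of *Plin2*, *Cidea* and *Plin3* (log axis, 95% counting intervals) in epithelial cells binned by sebocyte marker UMIs per 10000 UMIs of a cell, with the number of cells under each bin, for back skin (left) and PG (right), and an open triangle for the limit that 0 UMIs allow. *Cidea* crosses above *Plin2* in the skin bins from 50 on and stays below it in every PG bin, and *Plin3* stays between 25.1 and 43.7 CPM in the PG bins up to 200.

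Between the tissues, with UMIs pooled over cells, *Plin2* of SEB was at a like level and *Cidea* was higher in skin. The log2 ratio of pSEB over sSEB was 0.02 (-0.19 to 0.23) for *Plin2* and 0.07 (-1.20 to 1.71) for *Plin3*. For *Cidea* it was -1.66 (-1.83 to -1.48), that is, 3.15-fold higher in sSEB. The median cell did not follow this order, at 3.58 *Cidea* UMIs per 10000 in sSEB and 4.38 in pSEB, nor did the unthinned share of cells with a *Cidea* UMI, 61.8% and 79.7%. Among late SEB the median cell did follow it, at 21 *Cidea* UMIs per 10000 in sSEB and 5.31 in pSEB. Among early SEB the median was 0 in sSEB and 1.6 in pSEB. The highest sSEB reached 66.4 per 10000. For *Plin2* the median cell stood at 4.08 in sSEB and 9.64 in pSEB. By stage, *Cidea* had a log2 ratio of pSEB over sSEB of 1.10 (0.14 to 2.24) in early SEB, where the skin value rests on 9 UMIs in 13 cells, and of -2.13 (-2.31 to -1.94) in late SEB. These ratios by stage were computed under 1 stage rule and no alternative. *Plin2* was at a log2 ratio of 0.41 (-0.04 to 0.91) in early and -0.19 (-0.42 to 0.06) in late SEB. Of the 6 members with at least 10 UMIs, 0 were higher and 1 lower in pSEB, where 5.56% of 10267 genes were higher and 10.2% lower, with a median log2 ratio of -0.14. *Plin3*, *Plin4*, *Plin5* and *Cidec* reached 10 UMIs only through pSEB. The last 3 had 0 UMIs in sSEB and no ratio, so they could not be called, and nothing is read from the count of 6. The difference between the stages in the ratio of pSEB over sSEB was not tested. Early SEB made up 13 of 34 in skin and 148 of 720 in PG, and the median level of basal keratins was 27.3 per 10000 in sSEB and 12.2 in pSEB; the part of either in the comparison was not tested.

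**Figure D4:**
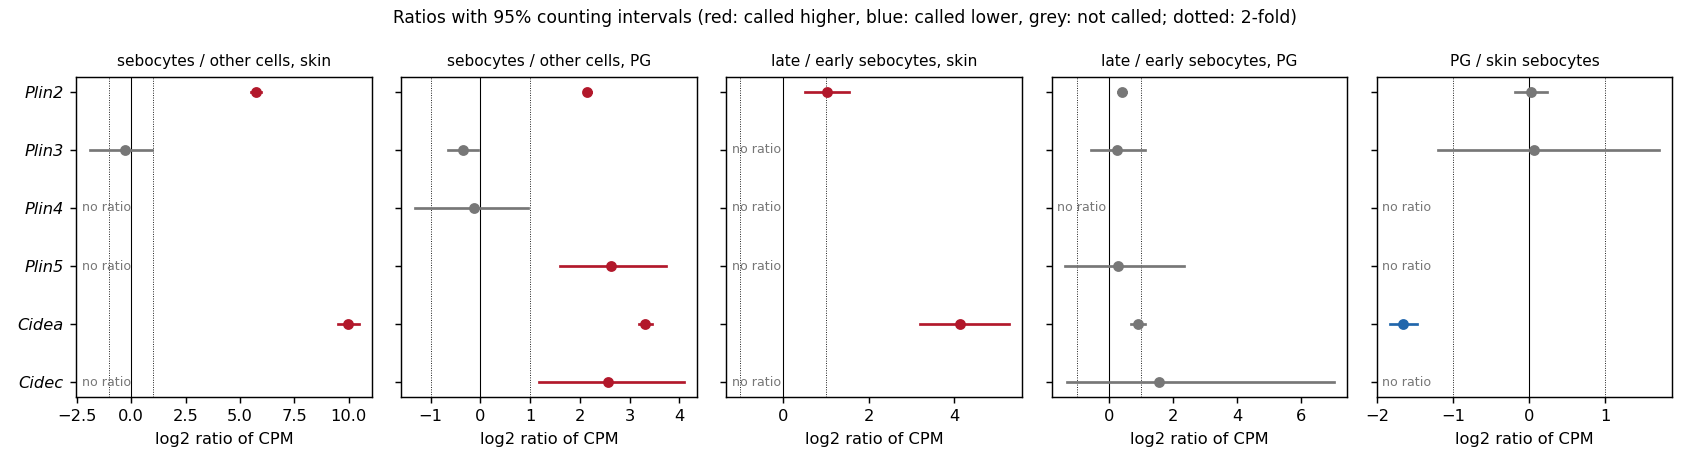
Log2 ratios of CPM with 95% counting intervals for 6 members in the 5 comparisons (red called higher, blue called lower, grey not called, dotted lines at 2-fold). *Cidea* is higher in SEB than in other cells of both tissues and lower in pSEB than in sSEB, *Plin2* is called in the first 3 panels, and "no ratio" marks members with 0 UMIs in a group and no bound.

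Outside SEB, basal, cycling and upper follicle keratinocytes of PG carried more *Plin2* than those of skin, and the basal ones more *Cidea*. Suprabasal keratinocytes had 0 *Plin2* UMIs in 13 PG cells, which allows up to 71.3 CPM, and 40 in skin (6.67 CPM), so no order could be read there. In basal keratinocytes *Plin2* stood at 301 CPM (285 to 318) in PG and 20.3 CPM (17.3 to 23.6) in skin, a 14.8-fold difference (log2 ratio 3.89, 3.66 to 4.13). *Cidea* stood at 35.5 CPM (30.1 to 41.5) and 1.34 CPM (0.667 to 2.39), a log2 ratio of 4.73 (3.85 to 5.76). The median PG basal keratinocyte also had 12.7 sebocyte marker UMIs per 10000, the median skin one 0. Cycling keratinocytes, which carry proliferation markers beside basal keratinocyte markers, followed the same order, with *Plin2* at 241 CPM in PG and 17.9 CPM in skin. Of the 3 members with at least 10 UMIs in basal keratinocytes 2 were higher in PG and 0 lower, where 17.3% of all genes were higher and 17.5% lower, and *Plin3* was level (log2 ratio -0.03, -0.31 to 0.25). In upper follicle keratinocytes *Plin2* stood at 69.5 against 25.6 CPM and was called higher in PG, as were 11.2% of all genes, with 19.2% lower. *Cidea* stood at 57.7 (48.8 to 67.6) against 4.12 CPM (1.88 to 7.82). It reached 10 UMIs in that class only through PG, so nothing is read from its being called. *Cidea* made up 45.3% (39.9 to 50.9) of both genes in these PG cells, against 10.5% (9.02 to 12.2) in PG basal keratinocytes.

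Free RNA of the suspension can add to such levels, so its values were set beside them. In PG it carried 294 CPM of *Plin2* and 111 CPM of *Cidea*, and in skin 34.1 and 12.6 CPM. The sebum genes *Awat2*, *Mc5r* and *Dgat2l6* stood at 7.15% of their free level in PG basal keratinocytes and 18.3% in PG upper follicle keratinocytes. At those shares free RNA would give 21 and 53.7 CPM of *Plin2* and 7.91 and 20.2 CPM of *Cidea*. Such shares depend on the genes used. In PG fibroblasts sebum genes stood at 3.99% of their free level, and *Krt5*, *Krt14* and *Krt15* together at 23.3%. The part of free RNA in the keratinocyte levels was not tested.

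Among classes outside the epithelium, macrophages and dendritic cells had the highest *Plin2* level in both tissues. *Plin2* is also known as a droplet coat of lipid-laden macrophages. These cells held 204 CPM (164 to 253) in skin and 219 CPM (176 to 268) in PG, a log2 ratio of 0.10 (-0.34 to 0.54), and 24.9% of the skin cells had a UMI at a median depth of 1880 UMIs. Skin T cells, at a median of 1269 UMIs, had 0 UMIs, which allows up to 37.7 CPM. In skin no class with at least 30 cells but SEB stood above them, and their interval lay above that of endothelium at 48.1 CPM (20.8 to 94.8) and of fibroblasts at 33.9 CPM (26.1 to 43.4). In PG it lay below that of basal keratinocytes at 301 CPM (285 to 318) and overlapped that of cycling keratinocytes and of endothelium at 179 CPM (95.3 to 306). Neither *Plin2* nor *Plin3* was called between the tissues in this class, where 8.33% of all genes were higher in PG and 11.6% lower.

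In fibroblasts *Plin2* was higher in PG, where 9.52% of all genes were higher and 6.96% lower. It stood at 131 CPM (109 to 156) in PG and 33.9 CPM (26.1 to 43.4) in skin, a 3.85-fold difference. *Plin4* and *Cidea* reached 10 UMIs only through PG, so nothing is read from their being called. *Plin4* had 16 UMIs in PG and 7 in skin, a log2 ratio of 2.16 (0.80 to 3.68). *Cidea* had 14 UMIs (14.8 CPM) in PG and 0 in skin, 9.13-fold higher against a floor of 3 counts (log2 ratio 3.19, lower limit 2.70). Against its free level in PG, *Cidea* of these PG cells stood at 13.3%, between the sebum genes and the set of *Krt5*, *Krt14* and *Krt15*. By the same measure *Plin2* stood at 44.4% and *Plin4* at 671%. *Plin3* was lower in PG fibroblasts (37.9 against 62 CPM, log2 ratio -0.71, -1.29 to -0.16) without reaching 2-fold.

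The genes whose levels followed the 3 abundant members most closely were named by the Pearson correlation of log2(CPM + 1) over the 18 classes, among 7600 genes outside the marker lists. These classes share 2 libraries and differ in depth and in free RNA, so the values are a description. For *Cidea* they were *Adig* (0.94), which encodes the adipogenesis regulator adipogenin, *Hacd2* (0.90), a dehydratase of fatty acid elongation, the mitochondrial citrate carrier *Slc25a1* (0.90), the serine synthesis enzyme *Psph* (0.89) and the transporter *Abcc3* (0.88). Each of these 5 had its highest level in SEB, *Hacd2* at 1871 CPM in pSEB and *Slc25a1* at 401 CPM in sSEB. For *Plin2* the values were lower, with *Psme2b* (0.88), *Tns3* (0.86), *Tanc2* (0.83), *Aldh2* (0.83) and *Pygb* (0.82), of which *Aldh2*, a mitochondrial aldehyde dehydrogenase, peaked in pSEB at 927 CPM and *Tns3*, a focal adhesion protein, in PG basal keratinocytes at 125 CPM. For *Plin3* they were *Lrp10* (0.95), *Arf4* (0.94), *Sh3gl1* (0.94), *Glg1* (0.94) and *Nfe2l2* (0.93), and none of these 5 peaked in SEB.

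Other lipid droplet genes were read from 3 lists, droplet formation (11 genes), lipolysis (8) and triglyceride synthesis (5). In skin 8 of 24 tested were higher in SEB than in other cells and 0 lower (median log2 ratio 1.11), beside 5.21% and 4.23% of all genes. In PG 10 of 21 were higher and 4 lower (median 0.96), beside 5.66% and 24.4% of all genes. *Mgll*, the monoglyceride lipase that ends lipolysis, had the largest ratio in both, at 725 against 50.2 CPM in skin (3.85, 3.58 to 4.11) and 2074 against 127 CPM in PG (4.03, 3.95 to 4.11). It was followed by *Fitm2*, which partitions new triglyceride into droplets, at 2.79 (2.02 to 3.47) and 2.06 (1.85 to 2.26). The ratio of *Plin2* in skin was above and in PG below that of *Mgll*. At the other end in skin stood the ubiquitin adaptor *Faf2* (-1.82, -4.87 to 0.03) and the acyltransferase *Gpat4* (-0.71, -3.76 to 1.15), each with 2 UMIs in sSEB and not called. In PG *Tmem159*, the seipin partner also named *Ldaf1*, was lower in SEB (-1.24, -1.71 to -0.80). *Hsd17b11*, a droplet-bound dehydrogenase, had 0 UMIs in pSEB against 6.34 CPM elsewhere, a log2 ratio of -3.11 against a floor of 3 counts (upper limit -2.77). It reached 10 UMIs only through the other cells.

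Between stages, 4 of 10 listed genes with at least 10 UMIs were higher in late than early sSEB and 6 of 19 in late than early pSEB, with 0 lower in either (median log2 ratios 1.39 and 0.56). Of all genes 11% were higher and 7.31% lower in skin, and 3.74% and 8.92% in PG. The 4 called in skin had 0 or 1 UMI each in early sSEB and reached 10 UMIs only through late sSEB. Nothing is read from that count. *Mgll* was again first, with 1 UMI in early and 130 in late sSEB (6.12, 3.62 to 11.44) and 572 against 3286 CPM in pSEB (2.52, 2.37 to 2.68). In PG it was followed by *Hilpda*, an inhibitor of triglyceride lipase (2.43, 1.78 to 3.16). In skin the seipin gene *Bscl2* was at 3.49 (0.86 to 8.86). *Tmem159*, with 0 UMIs in early and 45 in late sSEB, was at 3.01 against a floor of 3 counts (lower limit 2.65, no upper limit). Neither can be placed before the other. *Tmem159* was named here after its value was seen. *Rab18* (-0.07) and the triglyceride synthase gene *Dgat2* (-0.16) in skin, and *Agpat2* (-1.13, -2.40 to 0.20) and *Tmem159* (-0.61, -1.78 to 0.64) in PG, were not called. The *Mgll* and *Hilpda* ratios, like those of *Cidea* and *Plin2* in skin, depended on the stage rule: with keratins alone *Mgll* was at -0.45 in skin and *Hilpda* at -2.46 in PG.

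Between pSEB and sSEB, 6 of 20 listed genes were higher and 3 lower in PG (median log2 ratio 0.26). Of all genes 5.56% were higher and 10.2% lower. *G0s2* (0 UMIs in sSEB), *Hilpda* (3), *Lpin1* (1) and *Gpat4* (2) reached 10 UMIs only through pSEB. Nothing is read from their being called, or from the count of 6 higher that holds them. The droplet formation genes *Tmem159* (247 CPM in sSEB against 11.8 in pSEB, log2 ratio -4.39, -5.01 to -3.77) and *Acsl3* (137 against 11.5 CPM, -3.57, -4.30 to -2.81), an acyl-CoA synthetase of nascent droplets, were higher in skin, as *Cidea* was. The ratios of the triglyceride synthesis genes *Lpin1* (2.89, 0.39 to 8.20) and *Gpat4* (2.83, 0.97 to 5.89) had only 1 and 2 UMIs behind their skin values. The third gene called lower was *Agpat2*, also of triglyceride synthesis (-1.85, -3.23 to -0.13, 5 UMIs in sSEB), and that list had a median of -0.44. Of the 7 lipolysis genes tested 4 were called higher in PG and 0 lower (median 0.93). *G0s2* and *Hilpda* are among these 4, so nothing is read from that count. The others were *Mgll* (1.52, 1.27 to 1.78, 132 UMIs in sSEB) and *Abhd5* (1.11, 0.32 to 2.03, 13 UMIs in sSEB). *Agpat2*, *Mgll*, *Abhd5*, *G0s2* and *Hilpda* were named here after their values were seen.

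Barcodes left out for over 10% mitochondrial UMIs also held these transcripts. The 662 such barcodes of PG, with a median of 14.4 sebocyte marker UMIs per 10000, had *Plin2* at 461 CPM (430 to 494) and *Cidea* at 123 CPM (107 to 140). The 232 of skin had *Plin2* at 32.9 CPM (17 to 57.4) and *Cidea* at 82.2 CPM (55.5 to 117). The cells 1 marker short of the SEB gate, which are part of all other cells, stood between SEB and that whole group. They had *Plin2* at 81.4 CPM (19 UMIs) in skin and 556 CPM (524 to 590) in PG, and *Cidea* at 17.1 CPM (4 UMIs) and 106 CPM (92.4 to 121).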

How the data were processed

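Single-cell 3′ libraries of pooled back skin and pooled PG of 3 mice were made with the Chromium kit v3.1. The deposited matrices hold UMI counts per gene and barcode, made by the authors' facility with Cell Ranger (version 4 per the matrix header, mm10 per the submitters' processing notes). They hold all listed barcodes, 6794880 for skin and 737280 for PG, 37675226 and 26288071 UMIs, with no filter on cells. Lists of such different length can belong to different capture chemistries, although the labels name 1 kit for both libraries, and the sources used here do not explain them.

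From the counts, barcodes with at least 500 genes, 1000 UMIs and at most 10% mitochondrial UMIs were kept (27407186 and 15270076 UMIs, 1000 to 29257 and 1000 to 15458 per cell). No doublets were removed beyond classing cells with markers of several lineages as mixed, and removal by simulated doublet scores (7.12% of skin and 3.77% of PG cells) was an alternative. The members, lists and markers were chosen with earlier results of these data known, and the gate for SEB was set after seeing the counts. The marker *Krt85* was not used. UMIs were summed per class. Ratios of CPM carry exact binomial intervals, levels exact Poisson and shares Clopper-Pearson intervals, all at 95%. A gene was called at a 2-fold ratio with an interval leaving out 1 and at least 10 UMIs in both groups together. With 1 library per tissue there is no p-value. A group with 0 UMIs was set to 3 counts for a bound. Levels count transcripts by their 3′ ends and were not scaled by length.

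Named were all 8 members, the listed genes with the 2 largest and 2 smallest ratios among those with at least 10 UMIs, and the 5 genes most like each member with at least 50 CPM in a class. Free RNA was taken from barcodes with at most 20 UMIs (556410 and 397641 UMIs). Positions are from GENCODE vM21 and promoters from RefSeq (GRCm38.p6). Python 3.11.15, numpy 2.4.6, scipy 1.17.1, pandas 2.3.3, scikit-learn 1.9.0 and leidenalg 0.10.2 were used, and the ratios and calls were tested on simulated counts.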

Additional observations from a re-analysis of the deposited data

How the results depend on the processing

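Of 918 values of 64 results under alternatives, 857 kept their call or, for shares and counts, stayed near the value reported. Called ratios among them kept their direction. A ratio called in neither run could change sign and still be counted among them. *Cidea* stayed lower in pSEB than sSEB in each of the 15 alternatives run (log2 ratio -2.39 to -1.13), and *Plin2* ranged from -0.54 to 0.66 there. *Plin2* and *Cidea* stayed higher in SEB than in other cells of both tissues (5.17 to 6.31 and 9.43 to 10.78 in skin, 1.45 to 2.41 and 1.78 to 3.84 in PG). With at least 50 UMIs per gene, 2 members were higher in pSEB, since *Plin5* and *Cidec* were not tested.

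The stage comparison was the least firm. In skin 1 member was higher in late SEB with up to 20% mitochondrial UMIs, with the mean of each cell's CPM and with the looser gate (*Plin2* at 0.97, 0.68 and 0.85), and 0 with stages by keratins alone, where *Plin2* was -0.92, *Cidea* -0.19 and *Mgll* -0.45. In PG 1 member, *Cidea*, was higher with at most 5% mitochondrial UMIs (1.01) and with the looser gate (1.31). *Hilpda* there was -2.46 by keratins alone, and *Mgll* -0.56 with the stricter gate and with the gate without *Mgst1*, each of which left 1 early pSEB. For gated cells in a SEB cluster *Plin2* was 3.38 in skin and *Cidea* 0.24 in PG, and the share of *Cidea* in both genes of early sSEB was 40% there, 33.3% by cluster and 57.8% by keratins alone, against 18% as reported. Apart from that, the cause of these changes was not tested.

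The share of *Cidea* in both genes was 68.8% in sSEB with cells thinned to 1000 UMIs. In pSEB it was 29.5% thinned, 33.8% with at most 5% mitochondrial UMIs, 34.4% by cluster and 35% for gated cells in a SEB cluster. The looser gate, the gates without *Mgst1* or *Soat1*, the other cells without mixed and unassigned ones and the cluster overlap were chosen after seeing the data. No paired analysis was possible because each tissue is 1 library. The 34 sSEB and their 182110 UMIs limit what could be seen in skin.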
